A study of Homo sapiens with 15 samples.

Results

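The adaptor proteins and IRAK kinases that carry signals from Toll-like receptors were read as transcripts in THP-1 cells, a human monocytic leukaemia line, after stimulation with bacterial extracellular vesicles (BEVs). The genes were chosen by name, as the rows of the deposited count table whose symbol was MYD88, TIRAP, TICAM1, TICAM2, IRAK1, IRAK2, IRAK3, IRAK4 or TRAF6. These were 9 of the 60286 genes in the table, and 8 of them passed the filter on low counts that left 17198 genes for testing. TICAM2 did not pass it. The cells were wild-type, and each of 5 groups had 3 libraries. Non-stimulated cells (NC) received PBS. EUC and EPL cells received 1 μg/mL of BEVs from *E. coli* DH5a, isolated by ultracentrifugation (UC) or with ϵ-poly-L-lysine (PL). SUC and SPL cells received 10 μg/mL of *S. aureus* BEVs isolated by the same 2 methods. The species and the dose therefore changed together, and one cell line stands for monocytes in every group. The methods give 6 h of incubation, whereas the labels give day 0. No label says that the libraries of a group came from separate cultures, so p-values measure the spread between these libraries, which may be technical.

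Toll-like receptors and the receptors of the interleukin-1 family share an intracellular TIR domain. On ligand binding, this domain recruits adaptors that carry a TIR domain of their own. MYD88, bridged to some receptors by TIRAP, gathers IRAK4, IRAK1 and IRAK2 into a signalling complex, and TRAF6 then builds ubiquitin chains that lead to NF-κB and MAP kinases. TICAM1, bridged to TLR4 by TICAM2, opens the branch to type I interferon. IRAK3 has no effective kinase activity and is known as a brake on the pathway in monocytes and macrophages. Lipopolysaccharide of Gram-negative bacteria is read by TLR4, and lipoproteins, which Gram-positive bacteria such as *S. aureus* also carry, are read by TLR2.

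Counted reads ranged from 14399421 to 16637345 per library, with a median of 15831655. Of 10 monocytic marker genes, 9 were at 1 CPM or above (CPM, the count scaled to the TMM-normalized library size), and the exception was CD68, whose highest value was 0.192 CPM. T cell markers summed to at most 0.0624 CPM in any library, and both erythroid markers were at 0. On the first component of the deviations from the group means, which held 34.8% of the variance, EUC3, EPL1 and SUC3 had the highest scores. Their scores were 43.9, 32.2 and 31.7, and they are called below the libraries that lay apart. The cut at 3 libraries was fixed and taken on 1 side only, and EUC1 lay at -36.0 on the other side. Results that rest on EUC3, EPL1 and SUC3 are given with and without these libraries. A change in the number of cells and a change in the RNA of each cell cannot be told apart in bulk RNA.

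Of the 8 genes tested, MYD88, TICAM1 and IRAK2 rose in all 4 stimulated groups and IRAK1 fell in all 4. "Rose" and "fell" stand for an adjusted p of at most 0.01 in edgeR's quasi-likelihood test, and "DEG" for a change that was also at least 2-fold. In EUC, 3 genes rose and 1 fell, where 16.5% of all tested genes rose and 14% fell. In EPL, 4 rose and 1 fell, against 16% and 13.2% of all genes. In SUC, 3 rose and 1 fell, against 12.4% and 9.15%. In SPL, 3 rose and 1 fell, against 13.3% and 10.6%. The fourth gene that rose in EPL was IRAK4. The up-regulated DEGs were MYD88, TICAM1 and IRAK2 in each group, 3 of 8, where 9.43%, 9.38%, 6.82% and 7.76% of all genes were up-regulated DEGs in EUC, EPL, SUC and SPL. The median log2 fold change of the 8 genes was 0.26, 0.32, 0.32 and 0.29 in EUC, EPL, SUC and SPL, and that of all tested genes lay between -0.01 and 0.01. All 4 comparisons share the NC libraries.

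**Figure D1:**
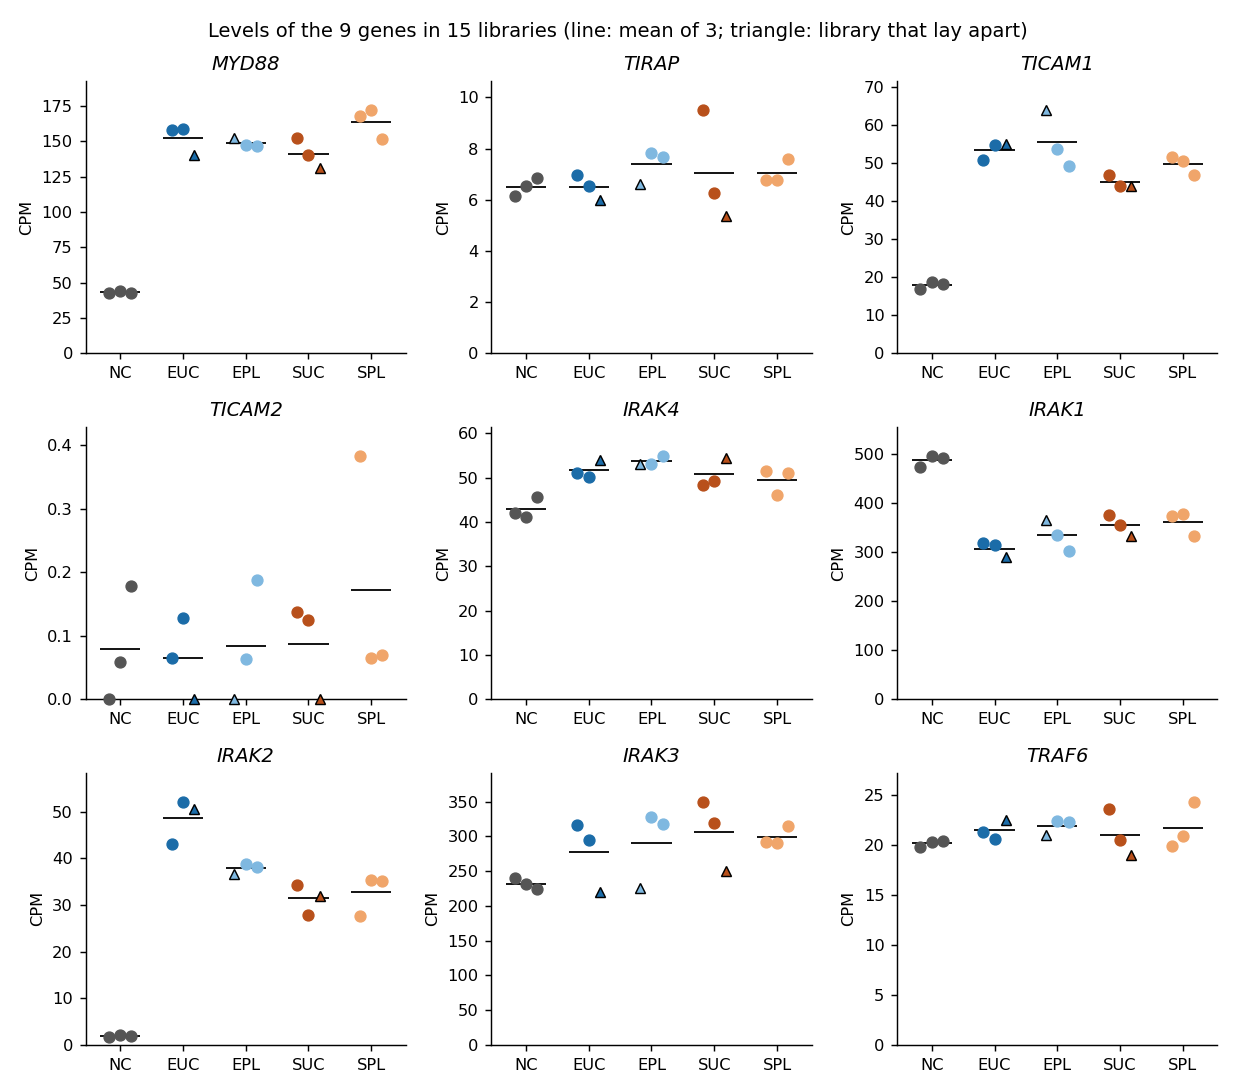
CPM of each of the 9 genes in every library, with NC in grey, E. coli groups in blue and S. aureus groups in orange. Lines are means of 3 libraries and triangles mark EUC3, EPL1 and SUC3. MYD88, TICAM1 and IRAK2 were above every NC library in all 12 stimulated libraries and IRAK1 was below, while TICAM2 reached at most 0.383 CPM.

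MYD88 (ENSG00000172936), the adaptor shared by most Toll-like receptors, lies on the forward strand of chromosome 3, at chr3:38138552-38143024 in hg38, and GENCODE merges the exons of its 15 transcripts into 4190 bases. It stood at 42.9, 44.3 and 42.4 CPM in NC1, NC2 and NC3. With *E. coli* BEVs it was at 158, 159 and 140.5 CPM in EUC1, EUC2 and EUC3 and at 152, 147 and 146 CPM in EPL1, EPL2 and EPL3. With *S. aureus* BEVs it was at 152, 141 and 131 CPM in SUC1, SUC2 and SUC3 and at 168, 172 and 151 CPM in SPL1, SPL2 and SPL3. No stimulated library came near the NC libraries, and the 4 stimulated groups overlapped in part with each other. The log2 fold change was 1.82 ± 0.0833 (SE) in EUC and 1.78 ± 0.0832 in EPL (edgeR, adjusted p = 1.19e-11 and 1.61e-11). It was 1.71 ± 0.0831 in SUC and 1.92 ± 0.0835 in SPL (edgeR, adjusted p = 4.08e-11 and 8.08e-12). The level of MYD88 thus rose between 3.27-fold and 3.79-fold.

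TIRAP (ENSG00000150455, chr11:126282497-126298845, forward strand), which brings MYD88 to TLR2 and TLR4 at the membrane, was present at a low level. Its 3 NC libraries had 6.14 to 6.86 CPM, and the 12 stimulated libraries had 5.35 to 9.496 CPM with a median of 6.77. The ranges overlapped in every group, and SUC1 and SUC3 were the highest and the lowest libraries of all. The log2 fold change lay between -0.0042 in EUC and 0.18 in EPL, and no comparison passed the test (edgeR, lowest adjusted p = 0.446). In EPL the 95% interval reached from -0.19 to 0.55, so a rise of up to 1.46-fold was within it. TIRAP shares 492 and 361 exonic bases with 2 lncRNA genes on the opposite strand, TIRAP-AS1 among them.

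TICAM1 (ENSG00000127666, chr19:4815932-4831712, reverse strand) encodes TRIF, the adaptor of TLR3 and of the interferon branch of TLR4. Its single annotated transcript has 2 exons and 2684 bases. In NC1, NC2 and NC3 it was at 17.0, 18.6 and 18.1 CPM. It was at 51.0, 54.9 and 55.0 CPM in EUC1, EUC2 and EUC3 and at 64.0, 53.7 and 49.3 CPM in EPL1, EPL2 and EPL3. In the SUC libraries it was at 46.9, 44.1 and 44.03 CPM, and in the SPL libraries at 51.7, 50.7 and 46.8 CPM. All 12 stimulated libraries lay above NC, and the single highest value came from EPL1, a library that lay apart. TICAM1 rose 2.99-fold and 3.10-fold in EUC and EPL, and 2.51-fold and 2.78-fold in SUC and SPL. The log2 fold changes were 1.58 ± 0.0981, 1.63 ± 0.0981, 1.33 ± 0.0982 and 1.47 ± 0.0981 (SE), with adjusted p between 4.54e-10 and 1.08e-08 in edgeR.

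TICAM2 (ENSG00000243414, chr5:115578496-115602479, reverse strand) encodes TRAM, which bridges TLR4 to TICAM1. It collected 23 reads in all 15 libraries together, between 0 and 6 per library. NC had 4 reads over its 3 libraries, EUC and EPL had 3 and 4, and SUC and SPL had 4 and 8, and a library with 0 reads still allows 3. No difference was detectable at this depth. The read-through gene TMED7-TICAM2 covers 2674 bases, or 78.7%, of the exons of TICAM2 on the same strand. It had 0, 1, 6, 0 and 0 reads in NC, EUC, EPL, SUC and SPL. How reads in shared exons were counted is not given in the sources used here, and the low counts of both rows need not reflect a low transcript level.

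IRAK4 (ENSG00000198001, chr12:43758944-43798307, forward strand) is the kinase that starts the cascade by phosphorylating IRAK1. It was at 42.0, 41.2 and 45.7 CPM in NC1, NC2 and NC3, and at 46.1 to 54.9 CPM with a median of 51.3 in the 12 stimulated libraries. Every stimulated library was above every NC library, by a small margin. The log2 fold change was 0.32 ± 0.0799 (SE) in EPL, where IRAK4 rose 1.25-fold (edgeR, adjusted p = 0.00379). It was 0.27 ± 0.0800 in EUC, 0.24 ± 0.0800 in SUC and 0.20 ± 0.0801 in SPL, and these did not pass the test (edgeR, adjusted p = 0.0125, 0.0307 and 0.0598). The difference between EPL and EUC was 0.05 (95% interval -0.11 to 0.22), so the rise was not shown to be particular to EPL. IRAK4 in EUC passed in DESeq2 (log2 fold change 0.28, adjusted p = 0.00367), with DESeq2 size factors in edgeR (adjusted p = 0.00994) and with a stricter filter on low counts (edgeR, adjusted p = 0.00989). The EPL call was lost without NC1, NC2, EPL2 or EPL3 (edgeR, adjusted p = 0.0199, 0.0264, 0.0132 and 0.0181). Scaled by total counts alone, the log2 fold change in EPL was 0.20 (edgeR, adjusted p = 0.0490).

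IRAK1 (ENSG00000184216, chrX:154010506-154019902, reverse strand), the kinase that carries the signal from IRAK4 to TRAF6, was the most abundant of the 9 genes per exon length. Its NC libraries had 474, 496 and 493 CPM. With *E. coli* BEVs it stood at 318, 314 and 290.3 CPM in EUC1, EUC2 and EUC3 and at 366, 336 and 302 CPM in EPL1, EPL2 and EPL3. With *S. aureus* BEVs it stood at 376, 356 and 334 CPM in the SUC libraries and at 374, 378 and 333 CPM in the SPL libraries. Even the highest stimulated library, SPL2, was below the lowest NC library. IRAK1 was 1.59-fold and 1.46-fold lower in EUC and EPL, and 1.37-fold and 1.35-fold lower in SUC and SPL. The log2 fold changes were -0.67 ± 0.0840, -0.54 ± 0.0839, -0.46 ± 0.0838 and -0.43 ± 0.0838 (SE; edgeR, adjusted p = 5.31e-06, 5.13e-05, 0.000395 and 0.000595). No group reached a 2-fold fall.

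IRAK2 (ENSG00000134070, chr3:10164919-10243745, forward strand), a relative of IRAK1 that is known to sustain signalling to TRAF6, had the largest change of the 8 genes tested. In NC1, NC2 and NC3 it had 26, 35 and 31 reads, or 1.66, 2.06 and 1.85 CPM. It reached 43.1, 52.1 and 50.6 CPM in EUC1, EUC2 and EUC3 and 36.6, 38.8 and 38.2 CPM in EPL1, EPL2 and EPL3. It reached 34.3, 27.9 and 31.9 CPM in SUC1, SUC2 and SUC3 and 27.7, 35.4 and 35.1 CPM in SPL1, SPL2 and SPL3. All 12 stimulated libraries were far above NC, and no *E. coli* library was as low as any *S. aureus* library. IRAK2 rose 26.0-fold (95% interval 20.9 to 32.3) in EUC and 20.3-fold (16.3 to 25.2) in EPL. It rose 16.8-fold (13.5 to 20.9) in SUC and 17.5-fold (14.1 to 21.8) in SPL. The adjusted p in edgeR was 9.00e-14, 2.72e-13, 9.68e-13 and 6.99e-13.

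IRAK3 (ENSG00000090376, chr12:66189195-66254622, forward strand), the brake among the IRAK kinases, was at 240.1, 231 and 225 CPM in NC1, NC2 and NC3. It was at 317, 294 and 220.0 CPM in EUC1, EUC2 and EUC3 and at 225, 328 and 318 CPM in EPL1, EPL2 and EPL3. It was at 349.7, 319.7 and 250.4 CPM in SUC1, SUC2 and SUC3 and at 292, 289.9 and 316 CPM in SPL1, SPL2 and SPL3. The 3 libraries near or below NC in their groups were EUC3, EPL1 and SUC3, the libraries that lay apart, at 220.0 to 250.4 CPM, while the other 9 stimulated libraries had 289.9 to 349.7 CPM. With all libraries the log2 fold change was 0.26 ± 0.149, 0.32 ± 0.149, 0.40 ± 0.149 and 0.37 ± 0.149 (SE) in EUC, EPL, SUC and SPL, and no comparison passed the test (edgeR, adjusted p = 0.188, 0.0966, 0.0502 and 0.0692). Without these 3 libraries, a setting chosen after seeing the data, it was 0.40, 0.48, 0.53 and 0.37 (edgeR, adjusted p = 6.74e-06, 2.97e-07, 7.20e-08 and 4.13e-06), where 19.5%, 20.5%, 16% and 18.4% of all genes rose. A fit to the SPL and NC libraries alone, none of which lay apart, gave a log2 fold change of 0.38 (edgeR, adjusted p = 1.10e-07). The same kind of fit for EUC, EPL or SUC, each with a library that lay apart, did not call IRAK3. The SE of IRAK3 was 0.149 with all libraries and 0.0564 to 0.0625 without the 3, and what made these libraries differ was not tested. The 3 libraries left out had the lowest IRAK3 level of their groups, and EUC1, on the other side, was kept. The smaller SE and p-values of that fit follow in part from this choice and are no independent support for a rise.

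TRAF6 (ENSG00000175104, chr11:36483769-36510272, reverse strand), the ubiquitin ligase onto which the IRAK kinases converge, was at 19.8 to 20.4 CPM in NC. The 12 stimulated libraries had 19.0 to 24.3 CPM with a median of 21.2, and 10 of them lay above all NC libraries. The log2 fold change lay between 0.06 in SUC and 0.12 in EPL, with no call (edgeR, lowest adjusted p = 0.383), and scaled by total counts alone it was below 0 in all 4 groups, from -0.0732 in EUC to -0.0045 in EPL. The 95% interval in EPL ran from -0.09 to 0.33, which leaves out a rise above 1.26-fold.

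**Figure D2:**
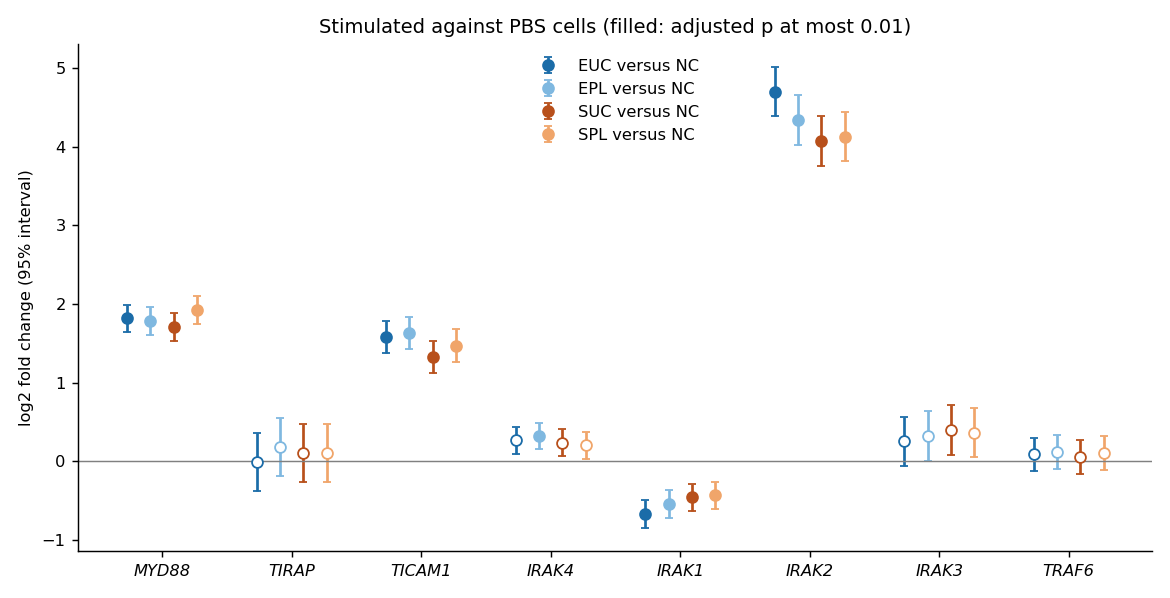
Log2 fold change against NC, with 95% intervals, for the 8 genes tested in the 4 stimulated groups. Filled points have an adjusted p of at most 0.01. IRAK2 stood between 4.07 and 4.70, MYD88 and TICAM1 between 1.33 and 1.92, and IRAK1 between -0.67 and -0.43.

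Levels of different genes were compared only as RPKM (CPM per kilobase of merged exons). In NC the order of mean RPKM was IRAK1 at 114, IRAK3 at 23.9, MYD88 at 10.3, TICAM1 at 6.67, IRAK4 at 5.88, TRAF6 at 2.48, TIRAP at 0.924, IRAK2 at 0.541 and TICAM2 at 0.0233. No neighbours in this order overlapped among the NC libraries. Over the 12 stimulated libraries it was IRAK1 at 79.7, MYD88 at 36.1, IRAK3 at 30.3, TICAM1 at 19.0, IRAK2 at 10.97, IRAK4 at 7.03, TRAF6 at 2.65, TIRAP at 0.992 and TICAM2 at 0.0300. IRAK2 passed TIRAP, TRAF6 and IRAK4, MYD88 passed IRAK3, and the ranges of MYD88 (31.2 to 41.0) and IRAK3 (22.7 to 36.1) overlapped. The order of IRAK4 and its neighbours depended on the length used. Per base of the longest transcript, IRAK4 stood at 8.91 in NC, above TICAM1 at 6.67, and at 10.3 to 11.1 as group means with BEVs, within the range of the IRAK2 means of 9.15 to 14.2.

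The share of IRAK1 in the IRAK family was lower, and the shares of its 3 relatives were higher, with BEVs than in NC. In NC, IRAK1 held 79.0% ± 0.715 (SD, n = 3) of the summed RPKM of the 4 kinases, IRAK3 16.5% ± 0.780, IRAK4 4.06% ± 0.225 and IRAK2 0.374% ± 0.0345. With *E. coli* BEVs IRAK1 held 59.2% ± 0.998 (EUC) and 61.8% ± 5.04 (EPL), and with *S. aureus* BEVs 63.6% ± 1.07 (SUC) and 64.2% ± 2.72 (SPL). IRAK2 held 11.7% ± 1.60 and 8.71% ± 0.349 in EUC and EPL, and 7.00% ± 0.757 and 7.23% ± 1.02 in SUC and SPL. No stimulated library overlapped NC in the share of IRAK1 or IRAK2. IRAK3 held 23.3% ± 2.91 and 23.7% ± 4.64 in EUC and EPL, and 24.0% ± 2.31 and 23.4% ± 1.80 in SUC and SPL, although its own level passed no test with all libraries. IRAK4 held between 5.14% and 5.83% as group means. Among the libraries that lay apart, EPL1 had the highest share of IRAK1 with BEVs, at 67.5%, and the lowest share of IRAK3, at 18.3%. Without EUC3, EPL1 and SUC3 the share of IRAK1 was 58.6%, 59.0% and 63.1% in EUC, EPL and SUC, that of IRAK2 10.98%, 8.85% and 6.65%, and that of IRAK3 24.9%, 26.3% and 25.4%. The shares of a whole move together, so these are the fold changes above on another scale. In NC there was 213 times as much IRAK1 as IRAK2 per exon length (range 194 to 229), and the ratio was 5.13 and 7.12 with *E. coli* BEVs by UC and PL and 9.16 and 9.03 with *S. aureus* BEVs. The summed RPKM of the family was 145 ± 2.20 in NC and between 122 ± 7.80 and 132 ± 3.72 with BEVs.

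**Figure D3:**
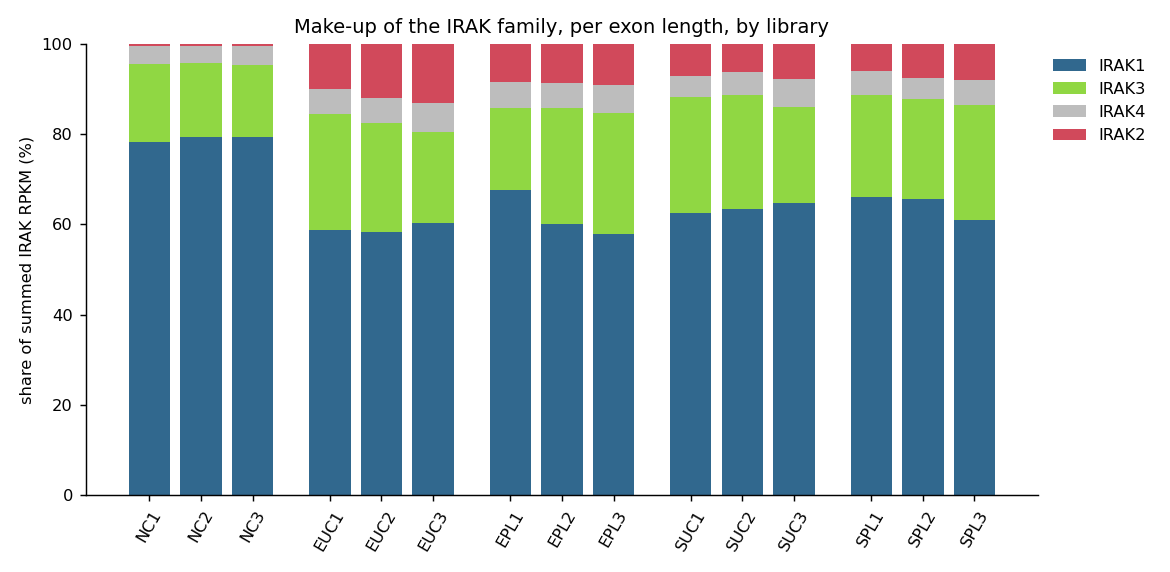
Share of each IRAK kinase in the summed RPKM of the 4 kinases, in percent, for each library. IRAK1 fell from 79.0% in NC to between 59.2% and 64.2% with BEVs, and IRAK2 widened from 0.374% to between 7.00% and 11.7%.

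The promoters of the 3 DEGs, and that of IRAK1, which fell, are shown because these 4 genes changed in all 4 stimulated groups. Each stretch comes from RefSeq (GRCh38.p14) and runs from 250 bases before to 50 bases after the annotated start, on the gene's own strand. Of the 9 genes, 8 were in the RefSeq table and TIRAP was not. Capitals mark matches, on either strand, to the general NF-κB consensus (10 bases) or to the AP-1 motif TGACTCA. The promoters lie at chr3:38138411-38138710 (forward strand, MYD88), chr19:4831663-4831962 (reverse strand, TICAM1), chr3:10164669-10164968 (forward strand, IRAK2) and chrX:154019853-154020152 (reverse strand, IRAK1).
MYD88: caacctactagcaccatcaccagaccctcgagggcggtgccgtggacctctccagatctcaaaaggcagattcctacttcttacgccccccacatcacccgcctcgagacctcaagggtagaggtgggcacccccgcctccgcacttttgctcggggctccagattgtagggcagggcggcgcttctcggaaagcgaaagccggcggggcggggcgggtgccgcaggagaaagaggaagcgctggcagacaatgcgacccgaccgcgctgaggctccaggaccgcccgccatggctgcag
TICAM1: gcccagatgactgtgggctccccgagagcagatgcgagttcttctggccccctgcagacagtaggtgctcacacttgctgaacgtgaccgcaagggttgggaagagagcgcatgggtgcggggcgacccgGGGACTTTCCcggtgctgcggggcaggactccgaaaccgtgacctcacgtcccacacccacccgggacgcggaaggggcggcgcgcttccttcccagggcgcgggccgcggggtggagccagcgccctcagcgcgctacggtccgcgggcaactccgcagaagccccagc
IRAK2: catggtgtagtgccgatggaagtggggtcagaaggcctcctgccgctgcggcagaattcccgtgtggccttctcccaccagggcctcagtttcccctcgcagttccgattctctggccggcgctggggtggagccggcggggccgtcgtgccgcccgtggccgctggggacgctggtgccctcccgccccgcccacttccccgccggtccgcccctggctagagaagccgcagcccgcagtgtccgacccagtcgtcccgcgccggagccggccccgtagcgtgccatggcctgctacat
IRAK1: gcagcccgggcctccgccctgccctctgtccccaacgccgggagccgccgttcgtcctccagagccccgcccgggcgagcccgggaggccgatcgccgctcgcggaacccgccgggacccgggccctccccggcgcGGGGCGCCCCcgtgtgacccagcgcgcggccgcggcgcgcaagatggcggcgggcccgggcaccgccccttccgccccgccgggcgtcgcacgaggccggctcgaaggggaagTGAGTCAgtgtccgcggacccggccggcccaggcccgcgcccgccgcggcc
The TICAM1 promoter held 1 NF-κB match, GGGACTTTCC, that began 120 bases upstream of the start. The IRAK1 promoter held GGGGCGCCCC, which reads the same on both strands, 114 bases upstream, and TGAGTCA, the AP-1 motif on the other strand, at the start itself. The windows of MYD88 and IRAK2, like those of IRAK3, IRAK4 and TRAF6, held neither motif, and that of TICAM2 held the AP-1 motif. An NF-κB match was present in 11.3% and an AP-1 match in 4.95% of all 35116 promoters in the table. A match is a run of letters and not a measured site. All 4 stretches were rich in G and C, from 65.7% in MYD88 to 83.0% in IRAK1.

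BEVs isolated by PL and by UC were compared within each species at the same dose, to ask whether the isolation method changed the response. None of the 8 genes passed the test for EPL against EUC, where 0% of all tested genes did (0 genes in edgeR, 604 at an unadjusted p of at most 0.05, and 0 in DESeq2). None passed for SPL against SUC either, where 0.00581% of all genes did. The largest difference in the *E. coli* pair was in IRAK2, with 37.9 ± 1.13 CPM in EPL and 48.6 ± 4.80 in EUC (SD, n = 3). Its log2 difference was -0.36 (95% interval -0.59 to -0.13), with an unadjusted p of 0.00456 and an adjusted p of 0.947 in edgeR. In the *S. aureus* pair it was in MYD88, with 164 ± 10.8 CPM in SPL and 141 ± 10.7 in SUC. The log2 difference was 0.21 (0.05 to 0.38), with an unadjusted p of 0.0161 and an adjusted p of 0.814 in edgeR. These intervals do not show that the methods act alike. For MYD88 in the *E. coli* pair (-0.20 to 0.13) and IRAK2 in the *S. aureus* pair (-0.18 to 0.30) they leave out differences beyond 1.23-fold in either direction.

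The difference between the methods was also compared between the species, in an interaction term. No gene of the 8 passed this test, and 0% of all genes did (0 in edgeR, 659 at an unadjusted p of at most 0.05, and 6 in DESeq2). IRAK2 had a log2 difference of -0.42 ± 0.157 (SE; unadjusted p = 0.0160, edgeR), and MYD88 one of -0.25 ± 0.113 (unadjusted p = 0.0415, edgeR). Both had an adjusted p of 1.00.

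The mean of the *E. coli* groups was set against the mean of the *S. aureus* groups to ask whether the bacterium mattered. IRAK2 was the single gene of the 8 that passed, where 3.87% of all tested genes did. It was at 36.6 to 52.1 CPM in the 6 *E. coli* libraries and at 27.7 to 35.4 CPM in the 6 *S. aureus* libraries, which did not overlap. The log2 difference was 0.42 ± 0.0783 (SE; edgeR, adjusted p = 0.00231), or 1.34-fold higher with *E. coli* BEVs. Within UC it was 0.63 ± 0.111 (edgeR, adjusted p = 0.00203), where 2.49% of all genes passed, and within PL 0.21 ± 0.111 (edgeR, adjusted p = 0.672), where 0.384% passed. The call was lost without EUC2, EPL2 or SUC2 (edgeR, adjusted p = 0.0127, 0.0104 and 0.0132). Because the dose was 10 μg/mL for *S. aureus* BEVs and 1 μg/mL for *E. coli* BEVs, species and dose cannot be told apart.

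Among the other genes, TICAM1 was 1.15-fold higher with *E. coli* BEVs (log2 difference 0.21, 95% interval 0.07 to 0.35; edgeR, adjusted p = 0.0769). Without EUC3, EPL1 and SUC3 the log2 difference of TICAM1 was 0.13 (edgeR, adjusted p = 0.144). IRAK1 had a log2 difference of -0.16 (-0.29 to -0.04; edgeR, adjusted p = 0.144), and one of -0.20 without EUC3, EPL1 and SUC3 (edgeR, adjusted p = 0.00406). In that fit 1449 of 17584 genes passed, against 665 of 17198 with all libraries. MYD88 differed by -0.0150, with an interval from -0.13 to 0.10. The values of IRAK3, IRAK4, TRAF6 and TIRAP had intervals that included 0.

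**Figure D4:**
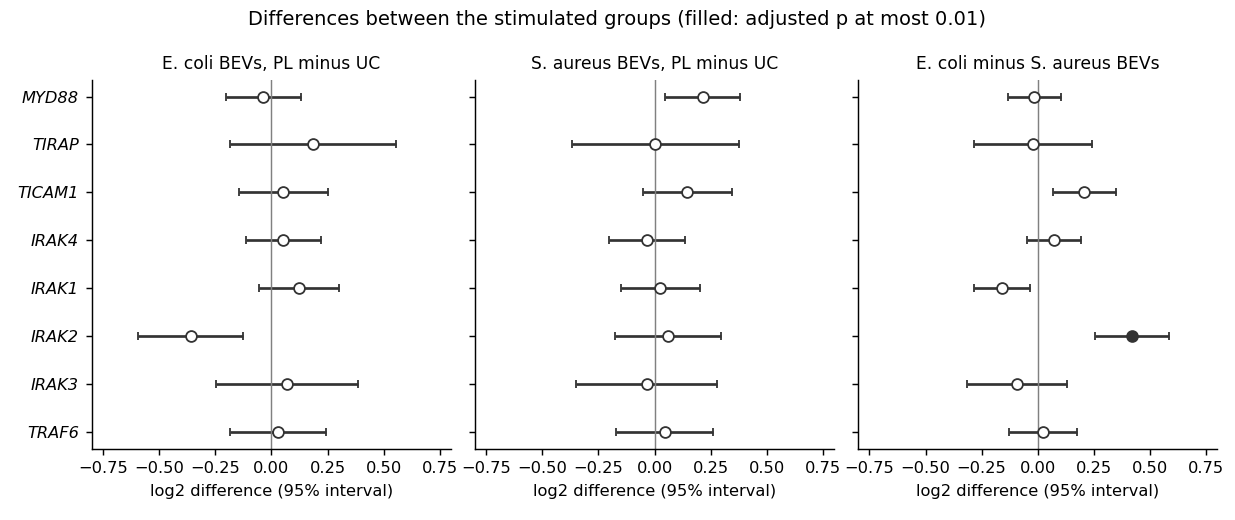
Log2 differences between stimulated groups, with 95% intervals, for the 8 genes tested. The left and middle panels show PL minus UC for each species and the right panel the mean of the E. coli groups minus the mean of the S. aureus groups. IRAK2 in the right panel, at 0.42, is the single filled point (adjusted p at most 0.01).

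The transcripts around the adaptors were read from a list of 68 other genes of the pathway, grouped by role, of which 60 were tested. The list was chosen with earlier results of these data known, so the shares below describe it and test nothing. The 60 include MIR3142HG, of the miR-146a locus, which is described further below. In all 4 comparisons with NC, 30 of the 60 rose and 4 fell, where 10.9% of all genes rose in all 4 and 7.67% fell. The median of the mean log2 fold change was 0.50 over these 60 genes and -0.0022 over all genes tested. Of 14 receptors and co-receptors tested, 8 rose in all 4 groups and none fell in all 4. CD180, outside the naming rule and chosen after its values were seen, fell in EUC and EPL alone. Its log2 fold changes there were -1.16 and -1.18 (edgeR, adjusted p = 0.00115 and 0.00102). IL18RAP, a chain of the interleukin-18 receptor, which also signals through MYD88, was at 0.179 ± 0.115 CPM in NC and at 4.19 to 7.88 CPM as group means with BEVs. TLR8 and TLR7, endosomal receptors of single-stranded RNA, were at 0.1003 ± 0.0314 and 0.265 ± 0.129 CPM in NC and at 2.12 to 2.43 and 2.68 to 3.67 CPM with BEVs. TLR2, which reads lipoproteins, had log2 fold changes of 0.50, 0.65, 0.86 and 0.84 in EUC, EPL, SUC and SPL, and TLR4, which reads lipopolysaccharide, had 1.31, 1.42, 0.82 and 1.00. TLR2 and TLR4 lay outside the naming rule and were chosen after their values were seen, and species and dose changed together in these values. LY96, a co-receptor gene on the same list, had at most 4 reads in any library and was not tested.

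Of 9 other adaptors and scaffolds, 5 rose in all 4 groups. PIK3AP1, which links these receptors to PI3 kinase, rose from 126 ± 4.58 CPM in NC to 439 ± 55.5 CPM in EPL and 528 ± 31.9 CPM in SUC. SCIMP, a scaffold for Toll-like receptors, and TANK, a partner of TRAF proteins, had mean log2 fold changes of 1.57 and 1.18. Of 9 enzymes that build ubiquitin chains, 3 rose in all 4. They were PELI1, a ligase of the IRAK kinases, at a mean log2 fold change of 1.64, RBCK1, a part of the linear ubiquitin ligase, at 0.49, and UBE2D3, a conjugating enzyme, at 0.44.

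Of 12 kinases and kinase partners downstream, 6 rose in all 4 groups. MAP3K8, which drives the ERK branch, rose from 11.6 ± 1.21 CPM to between 55.2 and 72.3 CPM. IKBKE, a kinase of interferon factors, and TAB2, a partner of the kinase TAK1, had mean log2 fold changes of 2.12 and 1.04. IRF7 was the single one of 3 interferon factors that rose in all 4, from 36.2 ± 2.73 CPM to between 204 and 295 CPM. Of 12 genes that restrain the pathway, 6 rose and 3 fell in all 4. TNFAIP3, which removes ubiquitin chains from TRAF6, rose from 14.8 ± 2.05 CPM to between 499.6 and 579 CPM. ATF3, a repressor of inflammatory genes, and TNIP1, a partner of TNFAIP3, had mean log2 fold changes of 4.06 and 2.75. The 4 genes that fell were TAB1 at -0.52, SIGIRR at -1.69, IRAK1BP1 at -1.02 and SMAD6 at -0.88, named after their values were seen.

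**Figure D5:**
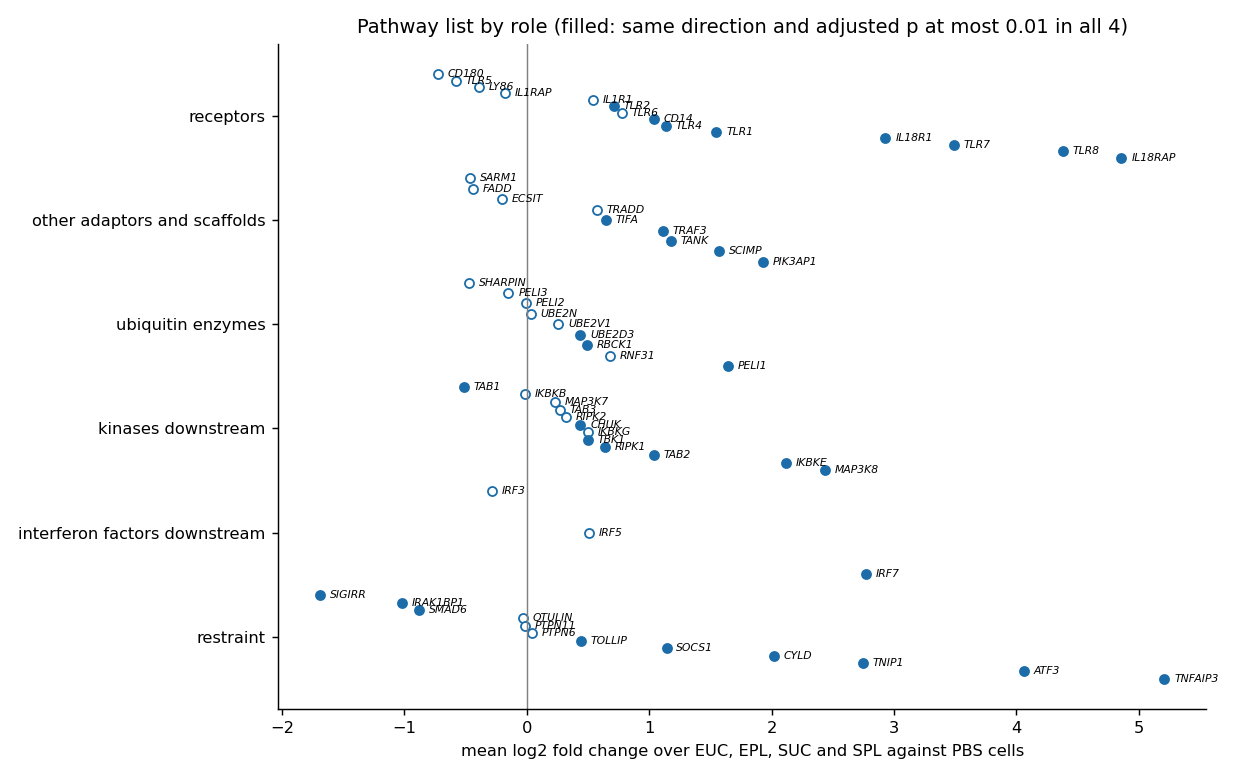
Mean log2 fold change over the 4 comparisons with NC for the tested genes of the pathway list, by role, without the miR-146a locus. Filled points changed in one direction with an adjusted p of at most 0.01 in all 4 comparisons. Restraining genes ran from SIGIRR at -1.69 to TNFAIP3 at 5.21.

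The locus of miR-146a is background to IRAK1 and TRAF6, which are its textbook targets, and NF-κB is known to activate it. MIR3142HG, its host gene, had 0 reads in NC, 202 to 299 reads per library with BEVs, and mean levels of 16.7 ± 3.07 and 15.5 ± 2.55 CPM in EUC and EPL and of 16.3 ± 2.03 and 18.0 ± 1.45 CPM in SUC and SPL. Against a floor of 3 reads over the NC group, it was at least 274-fold, 255-fold, 268-fold and 296-fold higher. The row of the precursor, MIR146A, held 0 reads in every library, and the mature miRNA was not measured. Its mature sequence (RefSeq, chr5:160485372-160485393, forward strand, GRCh38.p14) is shown with its seed, bases 2 to 8, in capitals, above the stretches of 28 bases around each perfect seed match (capitals) in the 3′ UTRs of the genes described here, read from hg38.
hsa-miR-146a-5p: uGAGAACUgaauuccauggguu
IRAK1 site 1 (chrX:154011807-154011834, reverse strand): aaatccggaagtcaaAGTTCTCatggtc
IRAK1 site 2 (chrX:154011791-154011818, reverse strand): gttctcatggtcagaAGTTCTCatggtg
IRAK4 site 1 (chr12:43789247-43789274, forward strand): cactggtgatgagtgAGTTCTCactcag
TRAF6 site 1 (chr11:36489353-36489380, reverse strand): tgctctagaaagttgAGTTCTCattttt
TRAF6 site 2 (chr11:36489288-36489315, reverse strand): tccttggaaaacttaAGTTCTCattcac
TRAF6 site 3 (chr11:36488554-36488581, reverse strand): aatatcgtggaatctAGTTCTCagggag
TRAF6 site 4 (chr11:36485423-36485450, reverse strand): agcagcagtgaccatAGTTCTCttctat
IRAK1 had 2 matches, TRAF6 4 and IRAK4 1, and the other 6 genes none. Among 19550 coding genes with a 3′ UTR, 11.2% had at least 1. Of the genes with a match, IRAK1 fell in all 4 groups, TRAF6 had no called change and IRAK4 rose in EPL. Whether the miRNA has a part in the level of any of these genes was not tested.

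The genes whose log2 CPM was most like that of the 3 DEGs over the 15 libraries were read out among 10633 genes with a mean of at least 5 CPM. For MYD88 they were ABCC3, TRAF3 and SIRPA, with Pearson's r of 0.996, 0.994 and 0.994. For TICAM1 they were ATF5, RAB7B and TAP2, at 0.998, 0.995 and 0.995, and for IRAK2 they were IGFBP3, SOD2 and HPYR1, at 0.998, 0.997 and 0.997. Such values come mostly from the contrast between NC and the stimulated libraries, which all of these genes share. Over the 12 stimulated libraries alone, r was 0.845, 0.716 and 0.659 for the partners of MYD88, 0.945, 0.916 and 0.944 for those of TICAM1 and 0.926, 0.892 and 0.880 for those of IRAK2. These are descriptions over libraries that share their groups and carry no test.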

How the data were processed

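RNA of 15 THP-1 libraries, 3 in each of 5 groups named by the labels, was sequenced from both ends. Per the labels and methods, the authors checked reads with FastQC 0.11.5, aligned them to hg38 with HISAT2 2.1.0 and deposited whole-number read counts per gene, with no normalization. Their notes also list StringTie 1.3.3b, DESeq 1.28.0 and featureCounts. The sources used here do not give the strand setting, the handling of shared exons or the annotation release, so overlapping genes are uncertain. The table had 0 rows without a gene and 0 unused columns.

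Counts were analysed with edgeR 4.0.16 in R 4.3.3 (filterByExpr, TMM, glmQLFit and glmQLFTest on all 15 libraries, group only), with Benjamini-Hochberg adjustment over 17198 genes. Changes with an adjusted p up to 0.01 were called, and those that were also 2-fold or more counted as DEGs. CPM is the count over the TMM-scaled library size. Merged exon lengths came from GENCODE release 44. Log2 CPM used a prior count of 2. A count of 0 was given a floor of 3 reads, which covers counting error only. The script was tested on simulated data. Alternatives included DESeq2 1.42.0, other scalings and filters, a replicate block and each library left out.

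The members and lists were chosen with earlier results of these data known. All 9 members are described. Of the pathway list, each role names up to 3 genes with the largest mean log2 fold change in size among those changed one way in all 4 comparisons with NC, with a mean of at least 1 CPM. For each DEG, the 3 genes with the highest r are named. No 2 libraries of a group were duplicates of one another.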

Additional observations from a re-analysis of the deposited data

Results flagged for a closer look

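IRAK2 differed between the species of BEVs. Its rise over NC was larger with *E. coli* than with *S. aureus* BEVs by 0.42 on the log2 scale, in a test of the difference itself (edgeR, adjusted p = 0.00231), with the 6 *E. coli* libraries all above the 6 *S. aureus* libraries. Within PL alone the difference was 0.21 and did not pass (edgeR, adjusted p = 0.672), and the pooled call was lost without EUC2, EPL2 or SUC2 (edgeR, adjusted p = 0.0127, 0.0104 and 0.0132). The doses were 1 and 10 μg/mL, so species and dose cannot be told apart.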

How the results depend on the processing

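The called changes of MYD88, TICAM1, IRAK1 and IRAK2 against NC kept their direction and their call under each alternative scaling, filter, tool, block or left-out library. Over these alternatives the log2 fold change of IRAK2 ran from 3.95 in SUC to 4.78 in EUC and that of IRAK1 from -0.83 in EUC to -0.36 in SPL. Of 1136 alternative values for 64 results of single genes, 1113 kept their side of the threshold, 11 lost it, 12 gained it and 0 reversed a called direction, while 63 values without a call changed sign. The losses were 7 for IRAK4 in EPL and 4 for IRAK2 between species. Without a filter on low counts, IRAK3 passed in SUC and SPL (edgeR, adjusted p = 0.000574 and 0.00251) and IRAK4 did not pass in EPL (adjusted p = 0.0360). Total counts alone shifted the median of all genes by -0.16, -0.12, -0.11 and -0.12 in EUC, EPL, SUC and SPL. Required to be at least 2-fold, by the DEG rule or by glmTreat, the number of genes changed was 3 in each stimulated group, instead of 5 in EPL and 4 in EUC, SUC and SPL, since IRAK1 and IRAK4 dropped out, and between species it was 0 instead of 1. Between species it was 0 within PL alone, 2 without EUC3, EPL1 and SUC3 (IRAK1 and IRAK2), and between 0 and 1 with each library left out. Without EUC3, EPL1 and SUC3, 1449 of 17584 genes passed between species, against 665 of 17198 with all libraries. The causes were not tested. Same-numbered libraries did not pair uniformly, with correlations of their deviations between -0.45 and 0.52. Of 15 libraries, 7 correlated best with one of their own number. These values do not show that pairing was absent. With a replicate block, 5, 5, 4 and 4 genes changed in EUC, EPL, SUC and SPL, 0 between methods in either species, 1 between species and 0 in the interaction. IRAK4 in EUC passed with the block (edgeR, adjusted p = 0.00710) and in 3 other alternatives, DESeq2 among them (adjusted p = 0.00367). TICAM2 summed with TMED7-TICAM2 reached at most 6 reads and was not tested, and at 0 to 6 reads no change of it could be seen.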
